A study of Mus musculus with 21 samples.

Results

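A set of 12 hypermethylated regions carried a methylation signal that was far apart between single adenomas of APCMin mice. They were chosen from the 5135 regions listed as more methylated in adenoma than in normal intestine (differentially methylated regions, DMRs) by 2 limits on the adenoma values. The mean of the 5 adenomas had to reach 0.4 rpm and the largest adenoma value had to be at least 2.5 times the smallest. Of the 5135 DMRs, 2466 reached the mean of 0.4 rpm, and 12 of these (0.487%) also reached the ratio, at 11 loci because a pair of DMRs in Gata4 touch each other. The adenoma values chose these regions, so the spread among adenomas is given below as a description and without a test.

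Methylation of DNA was read out with MeDIP-seq, in which an antibody against 5-methylcytosine pulls down methylated DNA fragments that are then sequenced. The signal is given in rpm, the mean number of fragments over a base, scaled to the aligned reads of the library. All mice were male C57BL/6J (B6) animals of 15 to 19 weeks, and all samples came from the ileum. Normal intestine was taken from 3 wild-type mice (Apc-+/+, B1 to B3) and from 3 mice with 1 Min allele of Apc (Apc-Min/+, called APCMin, N4 to N6), and 5 adenomas came from APCMin mice (Ad4, Ad4-1, Ad5, Ad6 and Ad7). Ad4 and Ad4-1 were separate adenomas of the animal that also gave N4, while Ad5 and Ad6 came from the animals of N5 and N6 and Ad7 had no matched normal sample, so that 5 adenomas stood for 4 animals. The Min allele is in every cell of these mice, and both the normal intestine and the adenomas were excised as whole tissue. In such tissue, fewer methylated cells and less methylation per cell cannot be told apart.

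DNA methylation in mammals is laid on cytosines that precede guanine (CpG sites) and is usually kept away from CpG islands, the CpG-rich stretches found at many gene starts. Many islands at developmental genes are held silent in adult tissue by Polycomb group proteins, and it is known from many tumours that such islands can become methylated. Loss of the second Apc allele starts adenomas in APCMin mice, and each adenoma is a growth of its own.

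MeDIP libraries held 13878615 to 26297510 uniquely aligned reads, with the lowest number in Ad7. At 0.4 rpm over 500 bp this amounts to 9.25 fragments in Ad7 and 11.5 to 14.1 fragments in the other adenomas, so that counting alone gives a single adenoma value a relative SD of 26.6% to 32.9%. The library names in the sample labels carry 4 series numbers, with Ad4 and Ad4-1 in the series of B1, B2 and N4, Ad5 in that of N5 and N6, Ad6 in that of B3, and Ad7 alone. At the 2466 DMRs of at least 0.4 rpm the median gain over normal intestine was similar in the 5 adenomas, with a log2 difference of 0.49 to 0.55. Ad6 was the lowest adenoma at 26.4% of these DMRs and Ad7 the highest at 28.8%, ties counted for each adenoma. The number of libraries and their counting error limit what single values can show.

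The sequences of 5 of the regions are printed here to show the CpG content of the DMRs with 1 outlying adenoma. They are the 2 DMRs in Gata4 with the widest spread, those in Gprc5b and Htr5b in which 1 adenoma was high, and that in Ano1 in which Ad4 was low. Each is the stretch of at most 300 bases with the most CpG sites outside annotated untranslated regions. All are read from the mm9 genome (NCBIM37), 5′ to 3′ on the strand of the gene, with CpG sites in capitals.
Gata4 DMR of 1250 bp, chr14:63859519-63859818, minus strand: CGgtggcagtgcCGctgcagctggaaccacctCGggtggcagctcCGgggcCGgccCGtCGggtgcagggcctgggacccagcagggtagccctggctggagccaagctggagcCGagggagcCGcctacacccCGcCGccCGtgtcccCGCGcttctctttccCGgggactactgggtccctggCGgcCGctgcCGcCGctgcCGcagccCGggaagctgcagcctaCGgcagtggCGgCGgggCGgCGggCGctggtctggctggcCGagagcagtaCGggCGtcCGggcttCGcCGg
Gata4 DMR of 500 bp, chr14:63859186-63859485, minus strand: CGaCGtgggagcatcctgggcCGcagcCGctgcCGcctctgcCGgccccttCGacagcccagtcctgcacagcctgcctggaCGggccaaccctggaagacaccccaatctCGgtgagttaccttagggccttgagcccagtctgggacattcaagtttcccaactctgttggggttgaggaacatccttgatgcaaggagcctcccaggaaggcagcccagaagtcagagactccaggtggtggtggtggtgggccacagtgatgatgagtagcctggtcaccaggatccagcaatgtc
Gprc5b, chr7:126137426-126137725, minus strand: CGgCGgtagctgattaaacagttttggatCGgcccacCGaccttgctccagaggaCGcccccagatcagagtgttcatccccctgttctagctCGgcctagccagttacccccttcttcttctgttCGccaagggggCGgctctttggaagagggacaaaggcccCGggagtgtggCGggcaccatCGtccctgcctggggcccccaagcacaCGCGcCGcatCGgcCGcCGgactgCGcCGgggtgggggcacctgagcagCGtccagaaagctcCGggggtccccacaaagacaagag
Htr5b, chr1:123424251-123424550, minus strand: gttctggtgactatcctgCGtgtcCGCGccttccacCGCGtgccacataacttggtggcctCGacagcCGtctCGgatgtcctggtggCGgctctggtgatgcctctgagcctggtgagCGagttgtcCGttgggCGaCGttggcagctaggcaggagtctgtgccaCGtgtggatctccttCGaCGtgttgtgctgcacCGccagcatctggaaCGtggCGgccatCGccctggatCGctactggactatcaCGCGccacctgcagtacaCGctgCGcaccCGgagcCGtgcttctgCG
Ano1, chr7:151924472-151924721, minus strand: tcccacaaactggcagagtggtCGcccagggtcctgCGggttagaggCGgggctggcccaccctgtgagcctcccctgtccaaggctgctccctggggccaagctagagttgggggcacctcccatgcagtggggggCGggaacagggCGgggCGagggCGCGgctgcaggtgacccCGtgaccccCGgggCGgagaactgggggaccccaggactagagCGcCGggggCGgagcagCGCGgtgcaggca

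The printed stretch in the longer Gata4 DMR holds 33 CpG sites and lies in coding sequence, and the stretch in the shorter one holds 9, most of them at its 5′ end. The stretches in Gprc5b, Htr5b and Ano1 hold 21, 28 and 16 CpG sites.

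Gata4 showed the widest differences. Gata4 encodes a zinc finger transcription factor of gut and heart development, which in the adult small intestine is present in duodenum and jejunum and lost towards the ileum. The longer DMR (chr14:63859501-63860750) covered 485 coding bases, the 497 bases of the leader in the same exon, and 268 bases of the preceding intron of this gene on the minus strand. No annotated transcript starts within the DMR. The signal was 2.80 rpm in Ad4, 2.40 rpm in Ad4-1, 2.79 rpm in Ad5 and 2.79 rpm in Ad7, but 0.21 rpm in Ad6. The normal samples had 0.09, 0.60 and 0.03 rpm in B1 to B3 and 0.15, 0.14 and 0.12 rpm in N4 to N6. The other 4 adenomas were thus above every normal sample, while Ad6 lay below B2 and above the other 5 normal samples.

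The 4 other adenomas had a mean of 2.695 rpm with an SD of 0.1967 rpm (n = 4), and the largest was 1.17 times the smallest. Adding Ad6 raised the ratio to 13.3. The value of Ad6 rests on about 18.5 fragments, against 161 to 242 fragments in the other adenomas, and the observed SD over the 5 adenomas of 1.124 rpm was 6.55 times the SD that counting gives (0.1717 rpm). This was the widest spread relative to counting error among the 2466 DMRs. The deposited value is the median of overlapping windows, and with counting error taken over 500 bp, the length of 1 window, the spread was 4.14 times the counting SD.

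Each of the 4 overlapping windows of 500 bp in the longer DMR showed the same order, with Ad6 at 0.12 to 0.27 rpm and the other adenomas at 1.91 to 3.64 rpm. B2 had 0.51 to 0.74 rpm in these windows and the other normal samples 0.01 to 0.20 rpm. B2 was thus above Ad6 in all 4 windows.

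**Figure D1:**
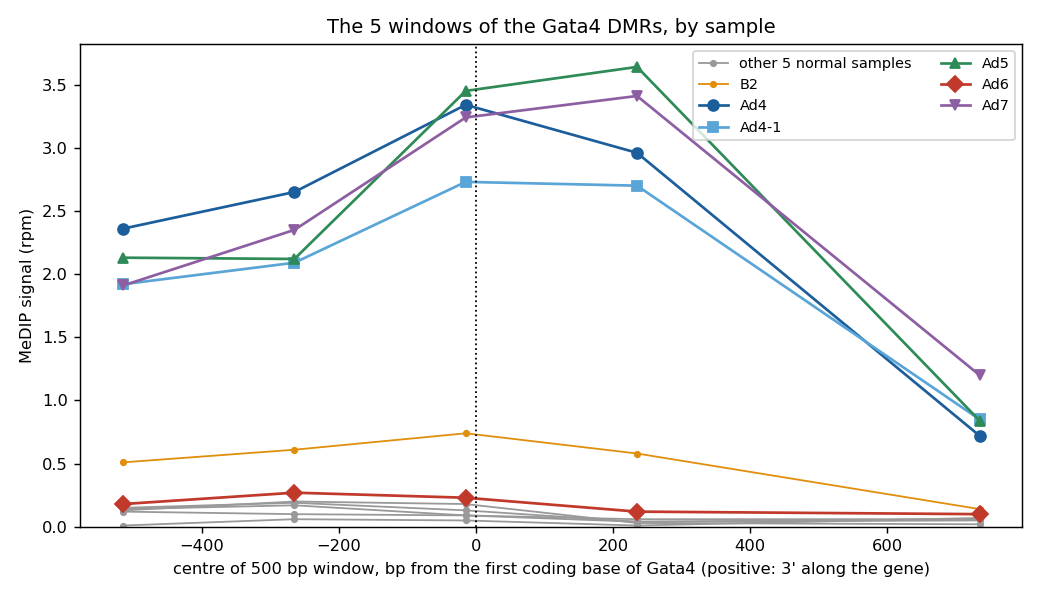
MeDIP signal (rpm) in the 5 listed windows of the Gata4 DMRs against the distance of the window centre from the first coding base (bp, positive towards the 3′ end of the gene). Each line is 1 sample and joins window centres, with no listed window between the last pair. Ad6 runs between B2 and the other 5 normal samples, and the other 4 adenomas lie at 0.72 rpm or more.

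The shorter DMR (chr14:63859001-63859500) continues 3′ of the longer one, across the rest of the coding sequence of this exon into the next intron. Its values were 0.72 rpm in Ad4, 0.85 rpm in Ad4-1, 0.84 rpm in Ad5, 0.10 rpm in Ad6 and 1.20 rpm in Ad7. Normal intestine had 0.06, 0.14 and 0.07 rpm in B1 to B3 and 0.02, 0.05 and 0.06 rpm in N4 to N6. Ad6 was again below B2 and above the other 5 normal samples, on only 3.53 fragments, and the spread was 2.54 times the counting SD. The pair of DMRs share fragments at their border and are not independent of each other.

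Within animal 6 the longer DMR rose by 0.61 from N6 to Ad6 on the log2 scale with 0.05 rpm added, against 3.83 from N4 to Ad4, 3.61 from N4 to Ad4-1 of the same animal, and 3.90 from N5 to Ad5. For the shorter DMR the difference was 0.45 in Ad6, 3.46 in Ad4, 3.68 in Ad4-1 and 3.15 in Ad5. Ad6 was not the lowest adenoma at every region, and at Ano1 and Gprc5b it was the highest.

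Of the 8 hypermethylated DMRs whose mean gain over normal intestine reached a log2 difference of 2, the Gata4 pair had the largest gains (3.24 and 2.76) and the largest ratios between adenomas. The next by gain, in Onecut3, had a gain of 2.66 and a ratio of 1.95. Ratios over the 8 DMRs ran from 1.69 to 13.3 with a median of 3.05. The largest outside the Gata4 pair was 6.82, at a DMR in Srcin1 with a mean below 0.4 rpm.

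In the next group of regions 1 adenoma was high. Gprc5b encodes an orphan G protein-coupled receptor. Its DMR (chr7:126137251-126138000) lies in an intron, with its centre 1100 bp from the gene start. The adenomas had 0.28 rpm in Ad4, 0.39 rpm in Ad4-1, 0.28 rpm in Ad5, 0.78 rpm in Ad6 and 0.37 rpm in Ad7. The normal samples had 0.18, 0.17 and 0.07 rpm in B1 to B3 and 0.12, 0.07 and 0.22 rpm in N4 to N6. All 5 adenomas were above all normal samples, and Ad6 was 2.00 times the next adenoma. Without Ad6 the ratio between adenomas fell to 1.39. Both windows of this DMR had Ad6 highest, at 0.81 and 0.75 rpm.

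Htr5b encodes a serotonin receptor. Its DMR (chr1:123424251-123424750) lies in the coding part of the first exon, with its centre 542 bp downstream of the gene start. Ad5 had 0.96 rpm, and the others had 0.41 rpm in Ad4, 0.38 rpm in Ad4-1, 0.42 rpm in Ad6 and 0.34 rpm in Ad7. Normal intestine had 0.13, 0.31 and 0.15 rpm in B1 to B3 and 0.19, 0.32 and 0.34 rpm in N4 to N6. Ad7 equalled N6, and without Ad5 the mean of the adenomas was 0.3875 ± 0.03594 rpm (SD, n = 4) with a ratio of 1.24. The normal samples of the same library series as Ad5, N5 and N6, were the highest of the 6, with a mean of 0.33 rpm against 0.195 rpm in the others. Their part in the value of Ad5 was not tested.

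Zfp467, which encodes a zinc finger protein, also had its highest value in Ad5. The DMR (chr6:48394501-48395000) overlaps an untranslated exon and an intron, and reaches into the promoter of an annotated transcript, taken as 1000 bp upstream to 500 bp downstream of its start. The adenoma values were 0.44 rpm in Ad4, 0.50 rpm in Ad4-1, 0.80 rpm in Ad5, 0.49 rpm in Ad6 and 0.32 rpm in Ad7. The normal samples had 0.20, 0.28 and 0.21 rpm in B1 to B3 and 0.28, 0.14 and 0.32 rpm in N4 to N6. Ad7 was level with N6, and here N5 and N6 had a mean of 0.23 rpm against 0.2425 rpm in the other normal samples.

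A region without an annotated gene had its highest value in Ad7. It lies at chr13:74577251-74578250, with its centre 33906 bp downstream of the nearest start of an annotated protein-coding gene, Gm10116. The values were 0.43 rpm in Ad4, 0.30 rpm in Ad4-1, 0.51 rpm in Ad5, 0.46 rpm in Ad6 and 0.88 rpm in Ad7, against 0.18, 0.28 and 0.23 rpm in B1 to B3 and 0.25, 0.14 and 0.25 rpm in N4 to N6. All adenomas exceeded all normal samples. Of its 3 windows, Ad7 was highest in 2, with 1.10 and 0.88 rpm, and had 0.32 rpm in the third, where the ratio between adenomas was 1.81. Ad7 is the shallowest library and the only one of its series, and with the mean of the windows in place of the deposited value, which is their median, this region did not reach the ratio of 2.5.

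In a further group of regions 1 adenoma was low. Ano1 encodes a calcium-activated chloride channel. The DMR (chr7:151924001-151924750) overlaps an exon near the start of several transcripts, which is coding in some of them and untranslated in others. The values were 0.23 rpm in Ad4, 0.64 rpm in Ad4-1, 0.48 rpm in Ad5, 0.74 rpm in Ad6 and 0.63 rpm in Ad7. The normal samples had 0.06, 0.02 and 0.03 rpm in B1 to B3 and 0.04, 0.08 and 0.06 rpm in N4 to N6. Every adenoma was above every normal sample, so Ad4 had a gain too, of 1.51 on the log2 scale with 0.05 rpm added, against 2.43 to 3.01 in the others. Both windows had Ad4 lowest and Ad6 highest.

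Rem2 encodes a small GTPase that inhibits voltage-gated calcium channels. Its DMR (chr14:55098251-55098750) covers the coding part of the last exon and the start of the 3′ untranslated region. Ad4 had 0.22 rpm, and the others had 0.75 rpm in Ad4-1, 0.64 rpm in Ad5, 0.52 rpm in Ad6 and 0.59 rpm in Ad7. Normal intestine had 0.19, 0.19 and 0.22 rpm in B1 to B3 and 0.23, 0.14 and 0.21 rpm in N4 to N6. Ad4 lay within the range of the normal samples and was not above N4 of the same animal, whereas the other 4 adenomas had a mean of 0.625 ± 0.09678 rpm (SD, n = 4). The value of Ad4 rests on about 7.6 fragments.

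Msx1 encodes a homeobox transcription factor of limb and craniofacial development. The DMR (chr5:38212251-38213000) covers the coding part of the last exon and the start of the 3′ untranslated region. Its values were 0.24 rpm in Ad4, 0.61 rpm in Ad4-1, 0.48 rpm in Ad5, 0.58 rpm in Ad6 and 0.42 rpm in Ad7, against 0.12, 0.15 and 0.15 rpm in B1 to B3 and 0.16, 0.09 and 0.12 rpm in N4 to N6. All adenomas were above all normal samples. In the window at chr5:38212251-38212750 Ad4 was lowest but Ad6 was highest, with 0.47 rpm against 0.41 rpm in Ad4-1, and the ratio was 1.96. A second hypermethylated DMR, 2250 bp away, also had its lowest value in Ad4, with 0.16 rpm against 0.21 to 0.38 rpm in the other adenomas and a mean of 0.03833 rpm in normal intestine.

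Lrrfip2 encodes a protein known to bind Dishevelled, a mediator of Wnt signals. The DMR (chr9:111063751-111064250) overlaps an internal coding exon. Ad5 was low with 0.26 rpm, and the others had 0.52 rpm in Ad4, 0.80 rpm in Ad4-1, 0.47 rpm in Ad6 and 0.67 rpm in Ad7. The normal samples had 0.18, 0.23 and 0.18 rpm in B1 to B3 and 0.24, 0.29 and 0.14 rpm in N4 to N6. Ad5 was thus below N5 of the same animal, on about 7.98 fragments. N5 and N6 had a mean of 0.215 rpm and the other normal samples 0.2075 rpm.

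At the remaining regions the adenomas were spread out more evenly. Hoxa2 encodes a homeobox factor of hindbrain and branchial arch patterning. The DMR (chr6:52114001-52114500) overlaps the 3′ part of the first coding exon of Hoxa2 and the following intron, and lies within the annotated span of Hoxa3. The values were 0.39 rpm in Ad4, 0.75 rpm in Ad4-1, 0.56 rpm in Ad5, 0.30 rpm in Ad6 and 0.48 rpm in Ad7, and 0.14, 0.26 and 0.27 rpm in B1 to B3 and 0.22, 0.15 and 0.27 rpm in N4 to N6. Ad6 was just above the highest normal values. A pair of other hypermethylated DMRs at 6000 and 7500 bp from it had ratios between adenomas of 1.33 and 1.21.

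The DMR in the protocadherin gamma cluster, which encodes neuronal adhesion molecules from many alternative first exons, lies at chr18:37906501-37907000. It is in an intron of the gene annotated as Pcdhgc5 and in an exon of the noncoding RNA gene Gm16882 on the opposite strand. Ad4 had 0.69 rpm and Ad7 0.57 rpm, while Ad4-1 had 0.36 rpm, Ad5 0.32 rpm and Ad6 0.26 rpm. Normal intestine had 0.16, 0.27 and 0.22 rpm in B1 to B3 and 0.20, 0.21 and 0.24 rpm in N4 to N6. Ad6 was below B2, and this was the only one of the 12 regions in which the largest gap on the log2 scale left more than 1 adenoma on each side. The 4 other hypermethylated DMRs of the cluster within 30000 bp had ratios between adenomas of 1.10 to 1.34.

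**Figure D2:**
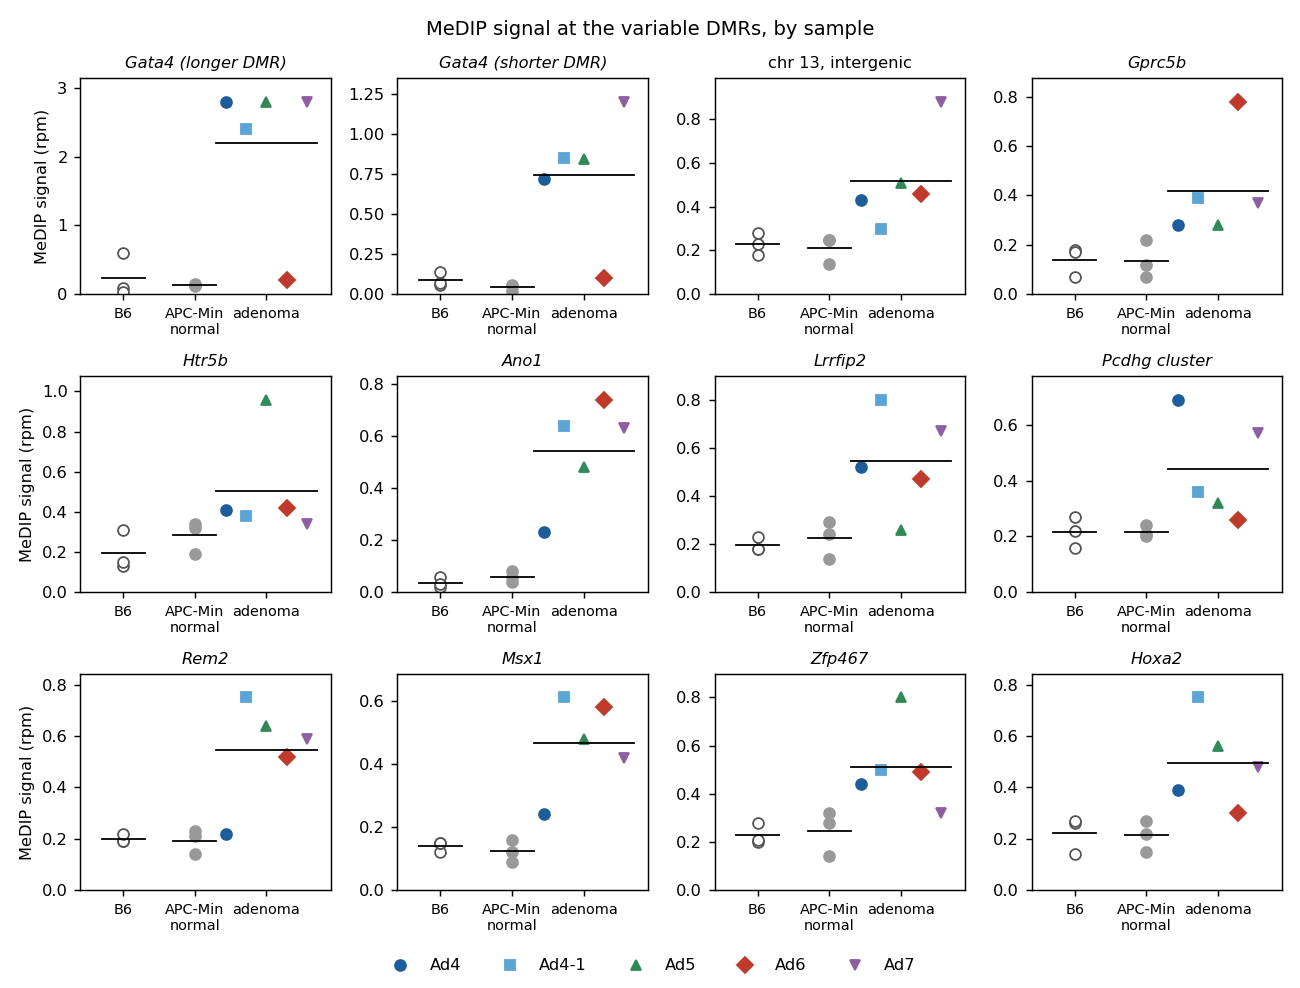
MeDIP signal (rpm, axes from 0) in the 3 B6 samples (open circles), the 3 APCMin normal samples (grey) and the 5 adenomas (coloured symbols) at each of the 12 DMRs, with lines at group means. Ad6 is low at both Gata4 DMRs and high at Gprc5b, and Ad4 is low at Ano1, Rem2 and Msx1.

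Across the 12 regions no single adenoma was always low or always high. The lowest value was in Ad4 at 4 regions, in Ad6 at 4, in Ad5 at 2, in Ad7 at 2 and in Ad4-1 at 1, with Ad4 and Ad5 tied at Gprc5b. The highest value was in Ad4-1 at 4 regions and in each of the other adenomas at 2. Among all 2466 DMRs of at least 0.4 rpm, Ad4 was lowest at 22.8%, Ad6 at 26.4%, Ad5 at 19.5%, Ad7 at 17.2% and Ad4-1 at 21.2%. Of the same DMRs, Ad4 was highest at 17.3%, Ad6 at 18.7%, Ad5 at 21.2%, Ad7 at 28.8% and Ad4-1 at 19.2%. No test was made of these counts, because the adenoma values chose the regions. At 11 of the 12 regions the widest gap on the log2 scale set 1 adenoma apart from the other 4, which was a low adenoma at 6 and a high one at 5. This gap ran from only 1.34-fold at Hoxa2 to 11.4-fold at the longer Gata4 DMR. The count describes regions chosen by the adenoma values, and no share over the 2466 DMRs is given beside it.

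Ad4 and Ad4-1 came from the same mouse and the same library series, and differed at least 1.5-fold at 6 of the 12 regions. Ad4-1 was the higher at 5 of them, by 3.41-fold at Rem2, 2.78-fold at Ano1, 2.54-fold at Msx1, 1.92-fold at Hoxa2 and 1.54-fold at Lrrfip2, and the lower at the protocadherin gamma cluster, at 0.522 of Ad4. At Rem2 and Msx1 the pair were the lowest and the highest of all 5 adenomas, though at Msx1 this did not hold in every window. Of all 2466 DMRs, 5.31% differed at least 1.5-fold between the pair, a share that the choice of variable regions leaves no comparison with. At the Gata4 DMRs the pair were close, at ratios of 0.857 and 1.18.

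**Figure D3:**
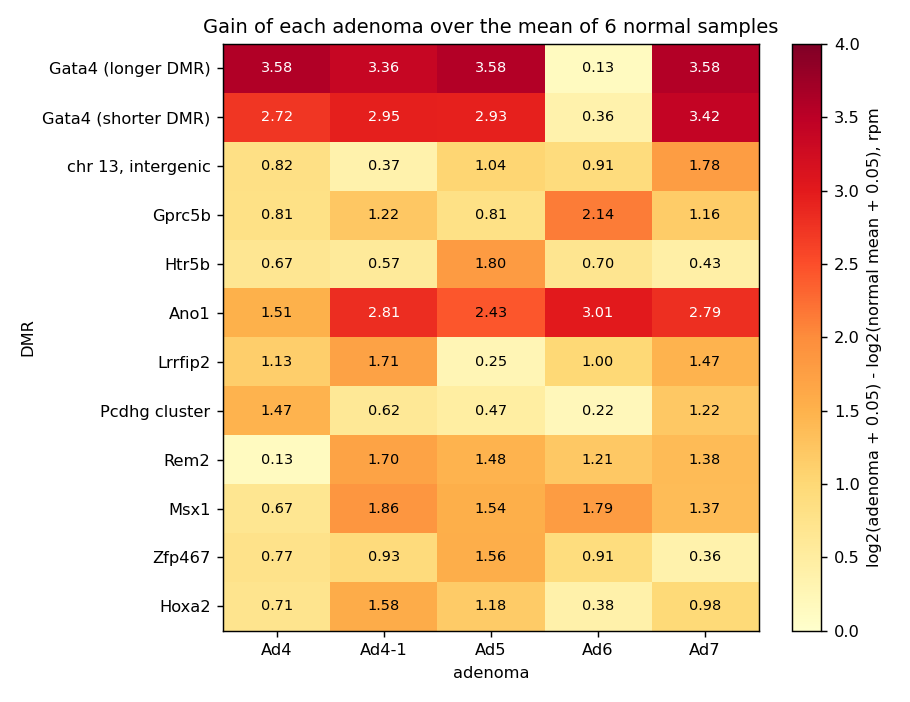
Gain of each adenoma over the mean of the 6 normal samples at the 12 DMRs, as the difference of log2 values after adding 0.05 rpm, written in each cell. The gain runs from 0.13 in Ad6 at the longer Gata4 DMR and in Ad4 at Rem2 to 3.58 in Ad4, Ad5 and Ad7 at the longer Gata4 DMR.

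Set against counting error, the 12 regions differed widely among themselves. The SD of the 5 adenomas was 1.33 to 6.55 times the counting SD, with a median of 1.66, and it was more than 2 times the counting SD at 4 regions, the Gata4 pair, the region on chromosome 13 and Gprc5b. With counting error over 500 bp, an alternative chosen after seeing the data, this held at 2 regions. The difference between the largest and the smallest adenoma was 13.9 and 4.7 times its own counting SD at the Gata4 pair, 3.76 at Ano1, 3.73 on chromosome 13, 3.52 at Gprc5b, and 2.40 to 2.95 at the other 7. Taking the extremes of 5 values enlarges such differences even where only counting error is present. Over the 2466 DMRs the median SD of the adenomas was 0.633 times the counting SD, and 310 DMRs (12.6%) exceeded it. The counting SD computed here was thus larger than the observed SD at most regions. The rank test that listed the DMRs favours small spread within groups, and its part in this was not tested. Of the 2466 DMRs, 10 exceeded 2 times the counting SD, among them 6 that are not among the 12 because their ratio was below 2.5, in Zfp503, Sema6c, Dchs1, Ush1g, Zfp652 and a stretch of chromosome 13 without a gene.

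**Figure D4:**
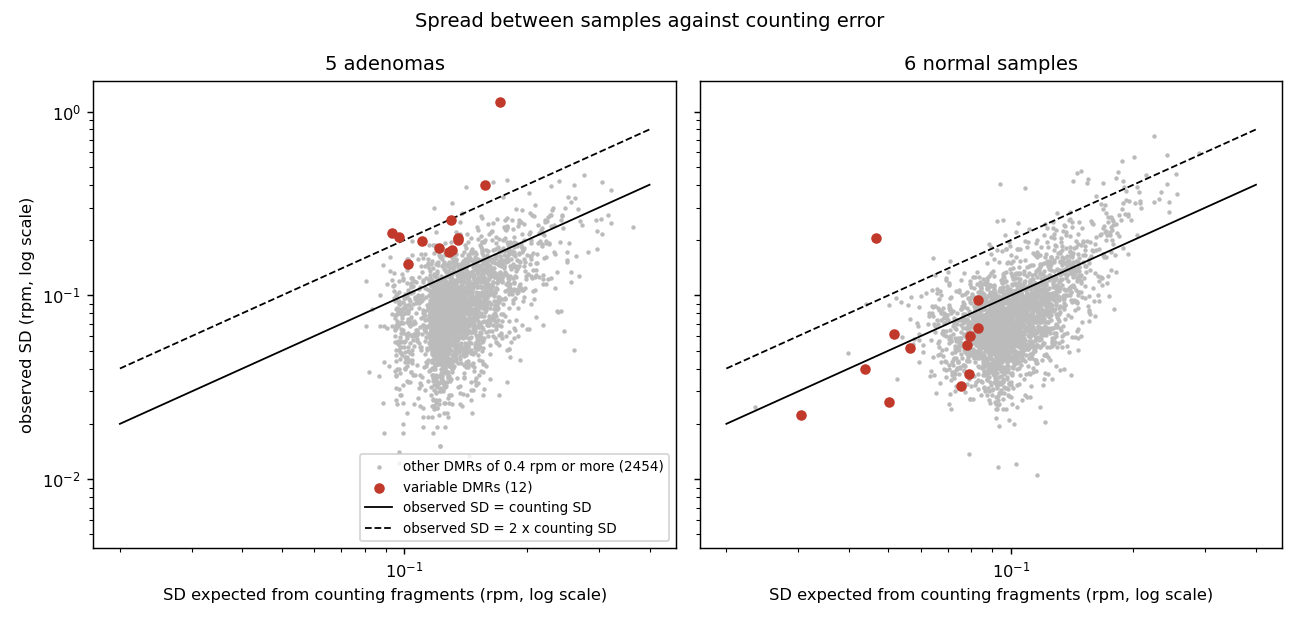
Observed SD between samples against the SD that counting fragments gives (rpm, both axes logarithmic) for the 2466 DMRs of at least 0.4 rpm, in the 5 adenomas (left) and in the 6 normal samples (right), with the 12 variable DMRs in red. In adenoma all 12 lie above the line of equality, as the rule requires large differences, and in normal intestine 3 of 12 do.

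The same measure was taken over the normal samples. The rule on the adenomas did not use them, but the DMRs had been listed from a contrast of adenomas with normal intestine that includes them. Their SD exceeded the counting SD at 3 of the 12 regions, against 23.2% of the 2466 DMRs. These were the longer Gata4 DMR (4.42 times), Gprc5b (1.20 times) and Htr5b (1.13 times). The median over the 12 regions was 0.778 times, and that over the 2466 DMRs 0.75 times. The value of 4.42 at Gata4 was the largest among the 2466 DMRs and came from B2.

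Wild-type and APCMin normal intestine were compared to ask whether the regions differed outside the adenomas. N4 to N6 came from mice that also bore adenomas, so tissue from before an adenoma was present was not sampled. None of the 12 passed in limma with Benjamini-Hochberg adjustment over all 13980 merged DMRs of both directions, where 0 DMRs passed (0.0%) and 647 had an unadjusted p under 0.05 (4.63%), and 0 of the 12 had an unadjusted p under 0.05. The smallest p was at Htr5b, with 0.1967 ± 0.09866 rpm in B6 and 0.2833 ± 0.08145 rpm in APCMin (SD, n = 3 each) and a log2 difference of 0.47 with a standard error of 0.27 (limma, adjusted p = 0.9993). At the longer Gata4 DMR the difference was -0.06 with a standard error of 0.46, which leaves room for changes in either direction. These are 3 animals a group. In limma the variance of each region is drawn towards a trend over all 13980 DMRs. The standard errors and p-values therefore do not measure the spread between these animals alone. The contrast that listed the DMRs had pooled wild-type and APCMin normal samples, which disfavours regions where they differ. The groups also differ in their mix of library series.

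Whether the normal sample made in the same library series deviates the same way as an outlying adenoma was looked at for the 10 lowest and the 10 highest adenomas that share a series with normal samples. The normal samples of the series were below the others at 2 of the 10 lowest and above them at 5 of the 10 highest. At Rem2 and Msx1 both extremes share a series, so that agreement at the lowest excludes agreement at the highest. Some of these normal samples also came from the animal of the adenoma, so series and animal are mixed. At the longer Gata4 DMR, B3 of the series of Ad6 was the lowest normal sample, with 0.03 rpm against a mean of 0.22 rpm in the others, and at the shorter one it had 0.07 against 0.066 rpm. At Gprc5b, where Ad6 was high, B3 had 0.07 rpm against 0.152 rpm. A single sample of normal tissue stands for the series of Ad6 here, and series and adenoma cannot be told apart for Ad7.

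Adenoma was higher than normal intestine on average at each of the 12 regions, by which contrast they had been listed in the first place. The fold difference of means was 11.7 and 11.1 at the Gata4 pair, 11.3 at Ano1, 3.54 at Msx1, 3.04 at Gprc5b and 2.03 to 2.77 at the others. On the log2 scale with 0.05 rpm added, the difference at the longer Gata4 DMR was 3.24, and 3.85 without B2. All 5 adenomas lay above all 6 normal samples at 5 of the 12 regions, against 44.5% of the 5135 hypermethylated DMRs and 48.0% of the 2466. Without B2 this held at 8 of the 12 and at 53.7% of all, since Ad6 then stood above the normal samples at both Gata4 DMRs and at the protocadherin gamma cluster, there with 0.26 rpm against 0.24 rpm in N6. Normal signal was low at the 12 regions, with a median of the normal mean of 0.203 rpm against 0.365 rpm over the 2466 DMRs. The choice of regions favours this difference. The rule asks for a smallest adenoma value well below the largest, and the listing for normal values below those of adenoma.

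The rule did not use the base sequence. The regions held 2.0 to 8.4 CpG sites per 100 bp with a median of 4.67, against a median of 1.80 over the 2466 DMRs. The lowest density, 2.0, was that of the shorter Gata4 DMR and lay near the median of all. A CpG island (at least 300 bp, 50% GC, and CpG sites at 0.6 or more of the number expected from base composition) overlapped 11 of the 12, all except Lrrfip2, against 22.5% of the 2466. With stricter limits (500 bp, 55% and 0.65) the counts were 8 of 12 and 9.21%. An island had only to overlap the DMR and could reach beyond it. The shorter Gata4 DMR counts under both limits, but over its own length held CpG sites at 0.235 of the number expected. It touches the longer one, so that the Gata4 pair are a single locus in these counts. A coding exon was overlapped by 8 of the 12 and by 23.9% of the 2466, and a promoter of a protein-coding transcript (1000 bp upstream to 500 bp downstream) by 3, at Htr5b, Ano1 and Zfp467, and by 7.06%. The part of the low normal signal in these shares was not tested.

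Polycomb target sets hold genes bound by Polycomb proteins or carrying their histone mark in stem cells. Of the 12 regions, 6 lay in genes of the 4 sets of Polycomb targets, namely both DMRs in Gata4 and those in Hoxa2, Msx1, the protocadherin gamma cluster and Zfp467. The share among the 2466 DMRs was 9.29%. The Gata4 pair touch each other and are a single locus. The part of CpG islands and of the low normal signal in this difference was not tested. Of these 6 regions, 3 (both in Gata4 and that in Hoxa2) were also in the developmental factor families listed by symbol, which took in 1.54% of the 2466 and did not list Msx genes. The region in the protocadherin gamma cluster was also in the list of cadherin and protocadherin genes, against 0.73% of the 2466. Zfp467 was the only gene of the 12 in the set of TET1 targets, which held 9.57% of the 2466. None of the 12 was in a gene of the MLL target, intestinal stem cell, early or late transit-amplifying cell, Paneth cell or Wnt target sets, nor in the lists of Wnt pathway genes, imprinted genes, ion channels (Kcn, Cacn and Scn) or cell type markers. These lists held 0.0406% to 2.96% of the 2466, so that few of 12 regions could fall in them.

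Of the 12 regions, 5 had other hypermethylated DMRs outside the 12 within 30000 bp, 9 in all, whose ratios between adenomas were 1.10 to 2.38. A DMR of at least 0.4 rpm outside the 12 has a ratio below 2.5 by the rule, and the pair in Gata4, which neighbour each other, are not among the 9. The lowest adenoma was the same as in the neighbouring variable region at 4 of the 9 and the highest at 2. The largest ratio was that of the second DMR at Msx1. Rem2 had a neighbour 750 bp away in which Ad4 was also lowest, but at 0.52 rpm against 0.57 to 0.69 rpm in the others.

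Input DNA, sequenced without the antibody, was used for B3, N4 and Ad7, with 3228908 to 5931425 aligned reads. Mean input at the 12 regions was 0.232, 0.153 and 0.0758 rpm, against 0.203, 0.145 and 0.14 rpm over the 2466 DMRs. In Ad7 the input of the region on chromosome 13, where the MeDIP signal of Ad7 was highest, was 0.00 rpm. The series holds no input library of the other adenomas.

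The limits of the rule cut through a continuous range of ratios. Hoxa2 and Zfp467 were just inside, both at a ratio of 2.5. Just outside were regions without a gene at chr5:100325251-100325750, with 0.34 to 0.84 rpm and a ratio of 2.471, and at chr18:23469001-23469750, with 0.25 to 0.61 rpm and a ratio of 2.44. A further 61 hypermethylated DMRs had a ratio of at least 2.5 but a mean below 0.4 rpm, where counting error is larger, and their spread had a median of 1.24 times the counting SD.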

How the data were processed

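MeDIP-seq of 11 ileum samples was used. The authors aligned reads to mm9 (Bowtie 0.12.5 per the processing notes), extended them to 300 nucleotides and averaged their coverage over windows of 500 bp, moved by 250 bp. The rpm values were deposited by the authors with 2 decimals, scaled to the uniquely aligned reads of each library. They cover windows and merged DMRs that passed the authors' limits. The deposited value of a merged DMR equals the median of its windows within 0.01 rpm, in 100.0% of 1067 values at the 97 DMRs of 3 or more windows. Columns with the authors' means, variances, ratios and rank test p-values were not used. Depth is the number of uniquely aligned reads in the study's sequencing statistics.

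Counting SD was computed from fragments of 300 bp that fill the DMR at the group mean and the depth of each library, taken as independent, and covers counting error only. Log2 values were taken after adding 0.05 rpm. APCMin and B6 normal intestine were compared with limma 3.58.1 (R 4.3.3, trend) on all 13980 merged DMRs, with Benjamini-Hochberg adjustment at 0.05, after the script was tested on simulated data. No filter on low values was applied, and all 12 regions entered the fit. Genes and exons came from gencode vM1, and sequence from NCBIM37, whose chromosomes hold all deposited coordinates.

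The regions, tests and lists were chosen with earlier results of these data known. The 12 regions are named in full, together with the DMRs just outside the limits. The Onecut3 DMR and the 6 other DMRs of wide spread were named after their values were seen. No expression values were used, so that the tissue labels were not checked against marker genes. The Polycomb, TET1, MLL, cell type and Wnt target sets are those of the study.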

Additional observations from a re-analysis of the deposited data

Results flagged for a closer look

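Values that stood apart within a group were looked for in the 5 adenomas and in the 6 normal samples at each of the 12 regions, by the gap of the extreme sample to its nearest neighbour relative to the range. About 1 in 20 of such groups is expected to stand out by chance, and the adenoma values had been chosen for wide differences. In 4 of the 24 groups a sample stood apart. Among adenomas these were Ad6 at the longer Gata4 DMR with 0.21 rpm, Ad6 at Gprc5b with 0.78 rpm and Ad5 at Htr5b with 0.96 rpm. Among normal samples it was B2 at the longer Gata4 DMR with 0.60 rpm. Of the other 2454 DMRs of at least 0.4 rpm, 8.6% had an adenoma and 6.23% a normal sample that stood apart in this way.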

How the results depend on the processing

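The number of regions depends on the limits. It was 75 at a ratio of at least 2, 5 at a ratio of at least 3 and 34 at a mean of at least 0.3 rpm, and 25 windows passed in place of merged DMRs, 17 of them inside the 12 regions. At a mean of at least 0.5 rpm 8 were left, without Msx1, Hoxa2, Gprc5b and the protocadherin gamma cluster. With 0.05 rpm added before taking the ratio 8 were left, without Msx1, Hoxa2, Zfp467 and the protocadherin gamma cluster. The number was 8 to 12 when each adenoma was left out in turn, and the Gata4 pair dropped out without Ad6. Scaling the adenomas to a common median over hypermethylated DMRs or over all DMRs gave 12 each time, with 11 of the regions shared. The lowest and highest adenoma remained the same at 11 of the 12 under the first scaling and, chosen after seeing the data, at 12 under the second. With the mean of windows in place of their median, chosen after seeing the data, 11 regions passed. With counting error taken over 500 bp the median spread was 1.51 times the counting SD. Fragments of 200 bp gave a median spread of 2.03, and allowing for partial overlap of fragments at the DMR ends gave 1.82.

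The median log2 gain of adenoma over normal intestine at the regions was 1.23, 0.54 with 0.5 rpm added, and 1.16 to 1.31 when each sample was left out. Samples of animals 4, 5 and 6 are paired because both tissues came from the same mouse, and their deviations from the group means correlated at 0.042, -0.056 and -0.03 over 13980 DMRs. The paired form, as a replicate block over these 3 animals, took Ad4 for animal 4, left out Ad4-1 and gave a median gain of 1.05. With the mean of Ad4 and Ad4-1 for animal 4, chosen after seeing the data, the paired form gave 1.18. Adenoma was above normal tissue of the same animal in all 3 animals except at Lrrfip2 and, with Ad4 alone, at Rem2, with 2 of 3 each. At Rem2 it was 3 of 3 with the mean of both. In the comparison of normal samples 0 regions passed limma at every setting and when each sample was left out (0 to 0), with a smallest adjusted p of 0.9486, and 1 of all 13980 DMRs passed without B1. With a minimum mean of 0.25 rpm in normal intestine none of the 12 was left to test. Low counts limit single values, down to 3.53 fragments in Ad6 at the shorter Gata4 DMR.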

Other observations

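A DMR in Srcin1, which encodes an inhibitor of Src kinase signalling, had the largest ratio between adenomas among the 61 regions that reached 2.5 below a mean of 0.4 rpm. It lies at chr11:97396251-97396750 and had 0.64 rpm in Ad4 and 0.75 rpm in Ad4-1, but 0.13 rpm in Ad5, 0.14 rpm in Ad6 and 0.11 rpm in Ad7. The normal samples had 0.00, 0.04 and 0.05 rpm in B1 to B3 and 0.09, 0.02 and 0.05 rpm in N4 to N6. The 2 adenomas of the same mouse were thus high together, at a ratio of 6.82 between the largest and the smallest adenoma, and N4 of that mouse was the highest normal sample. Ad4 and Ad4-1 also share a library series, so that mouse and series cannot be told apart in the adenomas, while B1 and B2 of that series had 0.00 and 0.04 rpm. This region was chosen after its values were seen.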
